A study of Mus musculus with 6 samples.

Results

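The genes described here encode splicing factors, heterogeneous nuclear ribonucleoproteins (hnRNPs) and DEAD-box RNA helicases, measured in sorted CD4+CD8+ double-positive thymocytes with and without a Sox13 transgene. They were taken by symbol, as genes whose name starts with Hnrnp, Srsf, Sf3, Snrp, U2af, Prpf or Ddx and that have a probe set annotated with that symbol alone. This gave 79 of the 8511 genes with such a probe set, through 188 of the 25470 probe sets used: 17 Hnrnp, 9 Srsf, 10 Snrp, 8 Sf3, 3 U2af, 8 Prpf and 24 Ddx genes. The Snrp count includes the pseudogene Snrp1c-ps2. A further 15 probe sets carried several symbols and were left out, and with them 3 genes, Hnrnpa3, Snrpd1 and Snrpd2, that had no other probe set.

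RNA was measured on Affymetrix arrays in 2 experiments, with 1 transgenic and 1 wild-type sample per array type and therefore 6 arrays in all. In experiment 1 the arrays were Mu11K A and Mu11K B, whose probe sets differ and which together were counted as 1 replicate, and in experiment 2 the array was MG-U74Av2. The transgenic group was C57BL/6 females of 6 weeks that carried a Sox13 transgene, and the controls were wild-type C57BL/6 littermates of the same age and sex. Thymocytes from 2 or more mice were pooled before sorting, so the p-values below do not reflect mouse-to-mouse spread, and nothing in the labels says that the A and B arrays came from separate sorts. The sources used here name neither the promoter that drives the transgene nor the founder lines. The labels describe the wild-type cells as lacking endogenous Sox13, and the question posed was whether ectopic Sox13 can impose the program of another T cell lineage.

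Introns are removed from pre-mRNA by the spliceosome, which assembles from small nuclear ribonucleoproteins (snRNPs) and many auxiliary proteins. SR proteins, encoded by the Srsf genes, mostly bind exonic enhancers and favour the use of nearby splice sites, whereas hnRNPs coat nascent RNA and often repress splice sites. U2AF and the SF3a and SF3b complexes of the U2 snRNP recognise the 3′ splice site and the branch point, the PRPF proteins act in the tri-snRNP and in catalytic activation, and DEAD-box helicases remodel RNA from splicing and ribosome assembly to export, translation and decay. In T cells, alternative splicing shapes receptors such as CD45, whose exon use depends on hnRNPs.

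Levels are given as scaled intensity, with each array brought to a trimmed mean of 500 and values under a floor of 100 set to 100, and differences as log2 ratios, with the transgenic value over the wild-type value. Levels of different genes or probe sets are not comparable on this scale. On the 6 arrays, 46.9% to 57.4% of probe sets exceeded the floor. The share was lower in the transgenic sample of each pair. It was 53.7% against 57.4% on Mu11K A, 46.9% against 51.4% on Mu11K B and 54.1% against 55.1% on MG-U74Av2. Sox13 itself measured 5951 in the transgenic and lay below the floor in the wild-type sample of experiment 1, and measured 3832 and 599.6 in experiment 2. The summed level of the double-positive thymocyte markers was 44572 in transgenic and 50532 in wild-type cells in experiment 1 (8 genes measured, 2 higher in transgenic) and 66405 and 67104 in experiment 2 (9 measured, 5 higher). Markers of other cells also differed between the genotypes. The erythroid sum was 1748 against 508 and 2034 against 653, with 2 of 3 genes higher in each experiment. Both higher genes were globins, while Car2 was lower in both experiments, with its transgenic value below the floor. The NK-like list, measured by Gzma alone, was 8604 against 1535 and 1262 against 605. The B cell sum was 8402 against 6512 (2 of 3 genes higher) and 2398 against 1996 (3 of 5 higher). The myeloid sum was 2860 against 3222 (2 of 5 genes higher) and 944 against 765 (3 of 5 higher). The stromal sum was 1027 against 2390 and 941 against 1306, with 2 genes measured and 0 higher in each experiment. In experiment 1 that sum was mostly Vim, at 927 against 2274. Vim was not measured in experiment 2, so the stromal sums do not cover the same genes. The part of these differences in the results for splicing genes was not tested. In bulk samples, fewer cells of a type and less RNA per cell cannot be told apart.

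Of the 79 genes, 60 were on the Mu11K arrays and 75 on the MG-U74Av2 array. A gene counted as measured in an experiment when a probe set lay above the floor in at least 1 genotype, which held for 58 genes in experiment 1, 74 in experiment 2 and 55 in both. Snrpn, the snRNP gene best known from neurons, and Ddx4, the germ cell helicase, were below the floor on every array that carried them. None of the 55 genes measured in both passed limma across the experiments (two-sided, Benjamini-Hochberg adjusted over 3237 genes, threshold 0.05), where 5 of all 3237 genes did, a background of 0.154%. The lowest adjusted p among the 55 was 0.712 in limma. At an unadjusted p under 0.05, 4 of them were lower in transgenic cells (Hnrnph1, Srsf5, Prpf4b and Ddx3x) and 0 higher, against 3.92% of all tested genes lower and 2.5% higher. On simulated data the fit called 37.9% of 2-fold and 98.4% of 4-fold changes that were alike in both experiments. The simulation gave all genes of an experiment the same normal noise. Measured log2 ratios of all genes ran from -5.07 to 5.90 in experiment 1, with an SD of 0.76. The simulated shares therefore need not hold for the measured genes, and the absence of calls does not exclude changes of these sizes.

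The ratios of experiment 1 were wider spread than those of experiment 2. In experiment 1, 21 of the 58 genes were higher and 37 lower in transgenic cells, where 54.4% of all genes were lower, with a median log2 ratio of -0.21 against -0.07 over all genes measured. A difference of 2-fold or more was counted with no test: 13 of 58 genes (22.4%) were that much lower, against a background of 11.7%, and 0 were that much higher, against 5.25%. In experiment 2, 39 of 74 genes were higher and 35 lower, where 54.6% of all genes were lower, the median was 0.02 against -0.03 over all genes, and none reached 2-fold, where 0.855% of all genes were 2-fold higher and 0.446% 2-fold lower. The spread of the 74 log2 ratios in experiment 2, an SD of 0.22, was smaller than that of all genes, 0.33, and only Ddx27 exceeded 0.5 in either direction, 1.35% of the genes against 10.7% of all genes. In experiment 1 the SDs were 0.77 and 0.76.

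**Figure D1:**
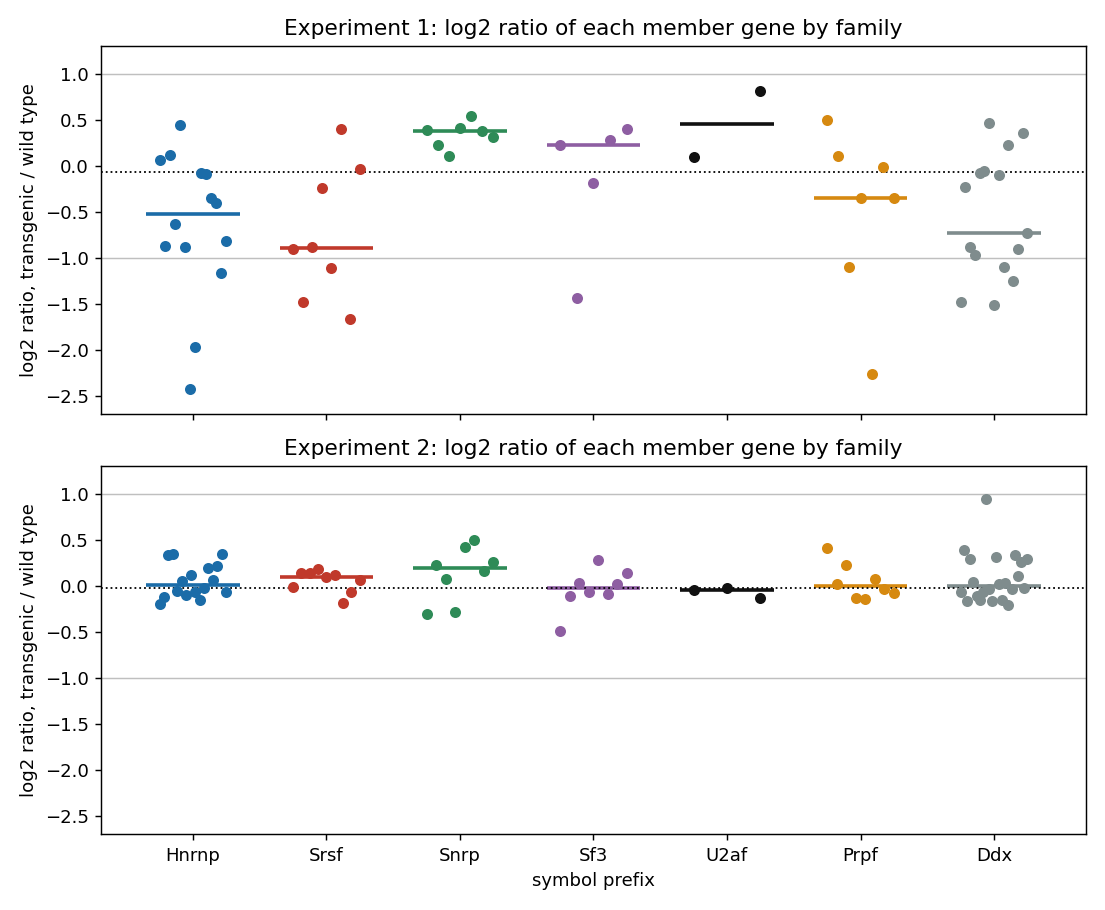
Log2 ratio (transgenic over wild type) for each measured gene, by family, in experiment 1 (58 genes) and experiment 2 (74 genes); points are genes with 1 sample per genotype, bars are family medians, dotted lines the median over all genes, and grey lines at 1 and -1 a 2-fold difference. In experiment 1 the Srsf median lies at -0.90 and the Snrp median at 0.37, while in experiment 2 all family medians lie between -0.05 and 0.20.

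The sign of the experiment 1 median depended on the scaling. With arrays scaled to a common median the 58 genes became 59 and their median 0.14, while the median over all genes moved from -0.07 to 0.27. The genes thus still lay below the median of all genes. With a floor of 200 their median was -0.10 (54 genes), and without probe sets of suffix f, r or i -0.35 (51 genes). With median scaling 9 of the 59 genes were 2-fold lower and 1 (U2af2) 2-fold higher. Over all genes, median scaling moved the split of 2-fold higher to 2-fold lower from 206 and 460 to 464 and 236. Quantile normalization and loess each left 10 genes 2-fold lower and 0 higher, with all-gene splits of 285 and 308, and of 295 and 287. Control ratios of 3′ over 5′ signal, a measure of RNA integrity and labelling, were 1.08 (transgenic) and 1.32 (wild type) for actin and 1.18 and 0.87 for Gapdh on Mu11K B, and 1.36 and 1.58 and 0.766 and 0.792 on MG-U74Av2. On Mu11K A the transgenic control ratios were 1.09 for actin and 1.00 for Gapdh. No wild-type control ratio was available there, so the genotypes could not be compared on that array. Their part in the ratios was not tested.

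Promoters are shown for 4 of the 40 genes whose window lay outside the gene's own annotated span: of these, the Snrp gene with the largest difference shared by both experiments and the 3 genes with the lowest ratios in experiment 1. Each is given as the 250 bases before the RefSeq start on GRCm38.p6, written 5′ to 3′ on the strand of the gene. Snrpg (chr6:86371290-86371539, plus strand) was higher in both experiments, Ddx5 (chr11:106789186-106789435, minus strand) was lower in both, and Hnrnph2 (chrX:134600929-134601178, plus strand) and Ddx1 (chr12:13249175-13249424, minus strand) were 2-fold or more lower in experiment 1. Capitals mark matches, on either strand, to the ETS motif CCGGAAG, the CRE motif TGACGTCA, the CCAAT box CCAAT, the SP1 motif GGGCGG or the SOX motifs AACAAAG and AACAATG.
Snrpg: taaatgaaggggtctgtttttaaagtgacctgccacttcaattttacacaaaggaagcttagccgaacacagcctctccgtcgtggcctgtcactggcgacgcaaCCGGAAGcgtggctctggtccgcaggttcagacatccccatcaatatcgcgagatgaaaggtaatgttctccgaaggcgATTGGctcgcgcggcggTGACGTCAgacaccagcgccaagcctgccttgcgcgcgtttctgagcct
Hnrnph2: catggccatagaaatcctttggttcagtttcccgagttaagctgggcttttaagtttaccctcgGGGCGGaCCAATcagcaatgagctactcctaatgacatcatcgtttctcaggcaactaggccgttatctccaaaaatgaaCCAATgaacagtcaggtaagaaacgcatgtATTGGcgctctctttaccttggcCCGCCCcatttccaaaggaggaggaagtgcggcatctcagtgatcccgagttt
Ddx1: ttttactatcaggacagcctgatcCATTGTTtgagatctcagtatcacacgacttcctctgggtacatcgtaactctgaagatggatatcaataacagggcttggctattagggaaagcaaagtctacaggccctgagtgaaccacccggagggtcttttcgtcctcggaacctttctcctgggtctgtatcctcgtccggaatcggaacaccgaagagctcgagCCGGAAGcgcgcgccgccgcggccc
Ddx5: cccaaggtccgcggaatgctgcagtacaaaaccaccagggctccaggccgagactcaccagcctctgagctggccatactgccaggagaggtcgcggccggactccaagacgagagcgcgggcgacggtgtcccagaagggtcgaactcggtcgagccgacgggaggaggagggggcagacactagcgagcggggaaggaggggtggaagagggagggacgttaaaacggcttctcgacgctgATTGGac
The Snrpg window held an ETS match 145 bases, an inverted CCAAT box 66 bases and a CRE match 49 bases before the start. Hnrnph2 had 3 CCAAT boxes and 2 SP1 matches and no ETS match, Ddx1 an ETS match 25 bases before the start, and Ddx5 a single inverted CCAAT box 7 bases before it. The SOX motif AACAATG matched the Ddx1 window once, 226 bases before the start and on the strand opposite the gene, so that the printed letters read CATTGTT.

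Promoter windows were found for 71 of the 79 genes, each before the start furthest upstream. Of these windows 40 lay outside the gene's own annotated span, and the others overlapped it. Each motif was searched on both strands, separately, so matches of different motifs may overlap. The ETS motif was in 22 of 71 windows (31.0%), against 12.2% of the promoters of genes on the arrays and 7.07% of all 27025 promoters. The Sf3 genes held it in 6 of 7 windows and the Hnrnp genes in 1 of 15. The CCAAT box was in 52.1% of the windows (36.1% and 34.5%), the SP1 motif in 64.8% (54.5% and 33.0%), the NRF1 motif in 14.1% (7.32% and 3.87%), the CRE in 5.63% (2.54% and 1.60%) and the E2F motif TTTCCCGC in 5.63% (1.67% and 0.929%). The TATA box TATAAA was in 7.04% (9.43% and 13.0%), and the YY1 motif AAGATGGC in 0 of 71 (1.71% and 1.58%). The SOX motif AACAAAG was in 2 windows, those of Ddx27 and Ddx4 (2.82%, against 3.88% and 4.97%), and AACAATG in that of Ddx1 alone (1.41%, against 1.82% and 3.35%). Among the 13 genes that were 2-fold lower in experiment 1, 3 held the ETS motif, 10 the SP1 motif and 6 the CCAAT box. These matches describe the letters of the windows.

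Among the hnRNP genes, 11 of 14 were lower in transgenic cells in experiment 1 (median log2 ratio -0.52), where 54.4% of all genes were. With median scaling 9 of 14 were lower (median -0.19, all genes 0.27), and without probe sets of suffix f, r or i 9 of 12 (median -0.85), while experiment 2 split evenly, 8 of 16 higher (median 0.01). Hnrnph1, whose protein binds runs of guanines beside regulated exons, measured 614 in transgenic and 3317 in wild-type cells in experiment 1 and 5802 and 6229 in experiment 2. It was thus 5.40-fold lower in experiment 1 and 1.07-fold lower in experiment 2, with a mean log2 ratio of -1.27 ± 0.47 (limma SE over the 2 ratios; unadjusted p = 0.018, adjusted p = 0.712, limma). Its paralog Hnrnph2 measured 113 and 445 in experiment 1, a 3.92-fold lower level, and 372 and 344 in experiment 2, where the transgenic sample was the higher. Hnrnph3, the next gene of this group by name, was measured only in experiment 2, at 1312 and 1374.

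Hnrnpa2b1, which encodes a core hnRNP involved in splicing and RNA transport, was lower in both, at 434 and 794 in experiment 1. Its 2 probe sets of experiment 2 had a geometric mean of 2067 in transgenic and 2249 in wild-type cells. Hnrnpu, a chromatin-associated RNA-binding protein, was 2.25-fold lower in experiment 1 (903 and 2033, transgenic first) but 1.27-fold higher in experiment 2 (1411 and 1108). Hnrnpa0, which binds AU-rich mRNA, was measured only in experiment 1 and differed little there, at 6476 and 6230. Hnrnpll, the lymphocyte regulator of CD45 exon skipping, measured 1093 and 1396 in experiment 1 and 2155 and 1881 in experiment 2, so the sign of its difference was not the same. Hnrnpl, another factor that acts on CD45 exons, was within 1.07-fold in both experiments.

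Of the hnRNP genes, only Hnrnpab was higher in both experiments, with log2 ratios of 0.11 and 0.33, and its mean of 0.22 ± 0.34 had an adjusted p of 0.947 in limma. Hnrnpd, whose protein (AUF1) binds AU-rich mRNA, was higher in experiment 1 (0.44) and lower in experiment 2 (-0.06). Hnrnpk and Hnrnpm, abundant hnRNPs of nuclear RNA, had log2 ratios of -0.08 and -0.41 in experiment 1 and of -0.15 and 0.06 in experiment 2.

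Hnrnpc, whose protein binds uridine tracts of nascent transcripts, showed how far probe sets of a gene can differ. Of its 4 Mu11K probe sets, 3 gave 4574, 3861 and 1804 in transgenic against 4592, 4098 and 2397 in wild-type cells, and the fourth gave 143 against 586. The log2 ratios ran from -0.01 to -2.04, and the 3 brighter probe sets carry the suffix f, which marks probes shared by similar sequences. In experiment 2 its single probe set measured 318 and 249, higher in transgenic cells. The mean log2 ratio of -0.14 turned to 0.17 when each gene was taken from its brightest probe set. Hnrnpdl, an hnRNP D-like protein, likewise had probe sets at -1.39 (206 against 538) and -0.39 (435 against 568) in experiment 1, and a gene log2 ratio of 0.05 in experiment 2.

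Among the SR protein genes, 7 of 8 were lower in transgenic cells in experiment 1 (median -0.90) and 6 of 9 were higher in experiment 2 (median 0.09), where 54.4% of all genes were lower in experiment 1 and 45.4% higher in experiment 2. With median scaling 5 of 8 were lower in experiment 1 (median -0.53, all genes 0.27). The count of experiment 2 turned to 4 higher and 5 lower when each gene was taken from its brightest probe set. Srsf5, an SR protein with several RNA-binding domains, measured 1188 in transgenic and 3765 in wild-type cells in experiment 1 and 5201 and 5926 in experiment 2. It was 3.17-fold and 1.14-fold lower, with a mean log2 ratio of -0.93 ± 0.39 (unadjusted p = 0.035, adjusted p = 0.769, limma). Srsf10, which can repress splicing when dephosphorylated, measured 143 and 399 in experiment 1 and 441 and 399 in experiment 2. The groups were thus 2.79-fold apart in experiment 1 and 1.10-fold apart the other way in experiment 2. Srsf3, the smallest SR protein, was 2.17-fold lower in experiment 1, at 491 and 1063. In experiment 2 a probe set of Srsf3 with the suffix f gave 1526 and 1530.3, and another gave 114 against a wild-type value below the floor, so its direction there rests on the floor.

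Srsf1, the founding SR protein, was measured by 4 Mu11K probe sets that did not give the same ratio. A pair on the B array gave 887 and 575 in transgenic against 2561 and 1712 in wild-type cells, log2 ratios of -1.53 and -1.57, while the A array gave 146 against 224 and 334 against 312. Only the last of these was higher in transgenic cells. In experiment 2 its 2 measured probe sets gave 1199 against 1229 and 967 against 967, a log2 ratio of -0.02 for the gene. Srsf2 (SC35), an SR protein of nuclear speckles, measured 2892 and 3428 in experiment 1 and a geometric mean of 7001 and 6186 in experiment 2. Srsf4 was the SR gene that was higher in both experiments, with log2 ratios of 0.40 and 0.12, and Srsf6 lay within 1.05-fold in both. In experiment 2 the probe sets of Srsf4 had opposite signs, with 0.30 for that of suffix f and -0.07 for the brighter. Srsf11 was 1.85-fold lower in experiment 1 and 1.10-fold higher in experiment 2.

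The snRNP protein genes went the other way. In experiment 1 all 7 measured Snrp genes were higher in transgenic cells (median 0.37), and in experiment 2 so were 6 of 8 (median 0.20), against 45.6% and 45.4% of all genes; with loess the count of experiment 1 was 6 of 7, and with quantile normalization 7 of 8. Of the 6 genes measured in both experiments, 5 were higher in both, where 23.9% of all genes were. No Snrp gene reached 2-fold in either experiment or passed limma, and the lowest adjusted p of the family was 0.872. Snrpc, a protein of the U1 snRNP that helps recognise the 5′ splice site, measured 2199 in transgenic and 1516 in wild-type cells in experiment 1 and 2503 and 1871 in experiment 2. It was 1.45-fold and 1.34-fold higher, with a mean log2 ratio of 0.48 ± 0.34 (adjusted p = 0.872, limma).

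Snrpe and Snrpg encode Sm proteins, which form the ring common to the spliceosomal snRNPs. Snrpe measured 9532 and 7361 in experiment 1 and 5190.0 and 4628 in experiment 2, 1.29-fold and 1.12-fold higher in transgenic cells. Snrpg, whose promoter is printed above, measured 4259 and 3445 in experiment 1 and 5449 and 4569 in experiment 2, 1.24-fold and 1.19-fold higher. Snrpa1, the A′ protein of the U2 snRNP, was 1.17-fold higher in both, at 189 and 162 and at 600.5 and 512. Snrpb, which encodes the Sm proteins B and B′, measured 14822 and 14121 in experiment 2, and its mean log2 ratio of 0.09 turned to -0.02 with quantile normalization and to just under 0 with loess. Snrpd3, another Sm protein, was measured only in experiment 2, at 419 and 298, and Snrpa, the U1 snRNP A protein, only in experiment 1, at 3182 and 2427. The exceptions in experiment 2 were Snrpb2, with 128 and 156, and the pseudogene Snrp1c-ps2, with 681 and 845. The 2 Snrpb2 probe sets of experiment 2 lay near the floor and had log2 ratios of opposite sign. That of suffix r gave -0.74 and that of suffix f 0.17.

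**Figure D2:**
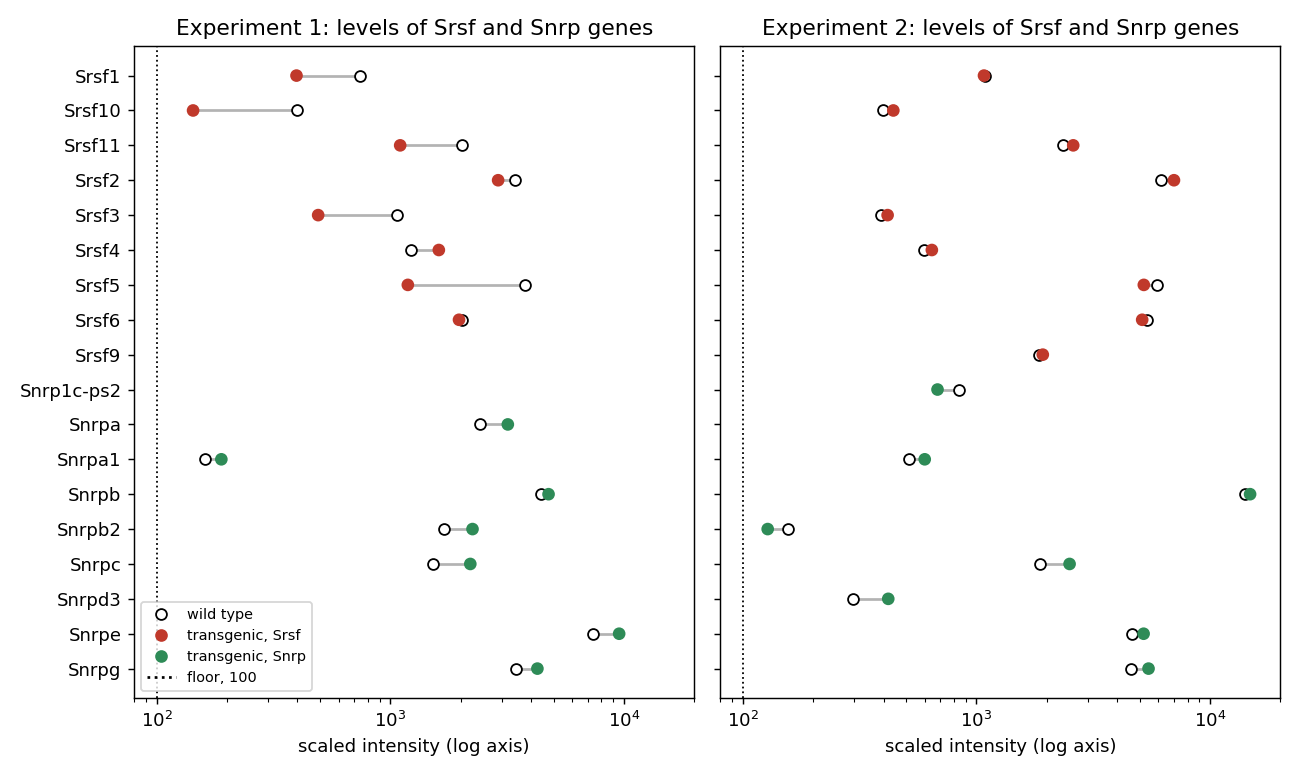
Scaled intensity (log axis) of the Srsf and Snrp genes in wild-type (open) and transgenic (filled) cells of experiment 1 and experiment 2, 1 sample each, as the geometric mean of a gene's probe sets; the dotted line is the floor of 100. In experiment 1 the transgenic point lies to the left for 7 of 8 Srsf genes and to the right for 7 of 7 Snrp genes, and in experiment 2 the points of most Srsf genes nearly coincide.

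The genes of SF3a and SF3b, which hold the U2 snRNP at the branch point, did not move as a group, with 3 of 5 higher in experiment 1 (median 0.23) and 4 of 8 higher in experiment 2 (median -0.02, and 0.03 with median scaling). Sf3b1, the large SF3b subunit that contacts the branch point, stood apart. Its 2 Mu11K probe sets measured 1664 and 698 in transgenic against 3775 and 2256 in wild-type cells, 2.71-fold lower together. In experiment 2 its probe sets measured 1823 against 1717 and 1350.4 against 1567, which gave a gene log2 ratio of -0.06 and a mean over both experiments of -0.75 ± 0.39 (adjusted p = 0.796, limma). Sf3b5, a small SF3b subunit, was higher in both, with log2 ratios of 0.40 and 0.02. Sf3a1 had log2 ratios of 0.23 and -0.49, the lowest value of the 74 genes in experiment 2. Sf3b6, which lies at the branch point adenosine, was measured only in experiment 2, at 3184 and 2891.

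U2af2, the large U2AF subunit that binds the polypyrimidine tract, measured 1580 in transgenic and 902 in wild-type cells in experiment 1, and 7039 and 7702 in experiment 2. Its log2 ratio of 0.81 was the highest of the 58 genes in experiment 1, and in experiment 2 it was -0.13. U2af1, the subunit that reads the AG of the 3′ splice site, was measured only in experiment 2, at 4603 and 4762. U2af1l4, a relative of U2af1, was within 1.07-fold in both experiments.

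Of the Prpf genes, 5 of 7 were lower in experiment 1 (median -0.36) and 4 of 8 in experiment 2 (median -0.01, and 0.05 with median scaling). The experiment 1 median moved to -0.06 with a floor of 200 and to -0.01 over genes above the floor on all arrays. Prpf4b, a kinase that phosphorylates tri-snRNP proteins, measured 116 in transgenic and 562 in wild-type cells in experiment 1, 4.82-fold lower, and 319.7 and 304 in experiment 2. Its mean log2 ratio was -1.10 ± 0.47 (unadjusted p = 0.035, adjusted p = 0.769, limma), although the transgenic sample was the higher in experiment 2. Prpf38b, a relative of the spliceosome activation factor Prpf38a, was below the floor in transgenic cells and 215 in wild-type cells in experiment 1, at least 2.15-fold lower, and 1329 and 1460.3 in experiment 2. Prpf39, associated with the U1 snRNP, was near the floor throughout: it was below it in transgenic cells in both experiments, against 128 and 111 in wild-type cells.

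Prpf19, the ubiquitin ligase at the core of the complex that activates the spliceosome, differed from most of these genes. It measured 1621 and 1152 in experiment 1 and 683 and 512 in experiment 2, 1.41-fold and 1.33-fold higher in transgenic cells, with a mean log2 ratio of 0.45 ± 0.34 (adjusted p = 0.872, limma). Prpf38a was also higher in both, with log2 ratios of 0.10 and 0.22. Prpf8, the scaffold of the catalytic core, measured a geometric mean of 665 and 852 in experiment 1 and 2091 and 2206 in experiment 2. Prpf6, which bridges the particles of the tri-snRNP, was within 1.02-fold in both, at 1236 and 1248 and at 1876 and 1921.

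Of the DEAD-box genes, 12 of 15 were lower in transgenic cells in experiment 1 (median -0.73), where 54.4% of all genes were. The count became 8 of 15 with median scaling (median -0.40, all genes 0.27) and 10 of 13 with a floor of 200 or over genes above the floor on all arrays (median -0.23 in each), and experiment 2 split evenly at 11 of 22 (median 0.00). In experiment 1 the cytoplasmic and export helicases Ddx3x, Ddx6 and Ddx19b and the RNA ligase component Ddx1 were all lower, Ddx19b with its transgenic value below the floor. The genes for splicing and nuclear mRNA had a median of -0.23, with 4 of 5 lower, and those for ribosome biogenesis -0.07, with 4 of 6 lower. In experiment 2 these groups had medians of -0.04 and 0.06. Ddx3x, a helicase of translation initiation, had a pair of probe sets above the floor in each experiment that gave similar ratios. Another probe set of experiment 2 was below the floor in both genotypes. The pair measured 984 and 702 in transgenic against 2761 and 2056 in wild-type cells in experiment 1. In experiment 2 the pair measured 1445 and 1214 against 1587 and 1383. The gene was 2.87-fold and 1.12-fold lower, with a mean log2 ratio of -0.84 ± 0.39 (unadjusted p = 0.048, adjusted p = 0.774, limma). Ddx1, known from the tRNA ligase complex, measured 634 and 1770 in experiment 1, 2.79-fold lower, and a geometric mean of 336 and 353 in experiment 2. Ddx6, a helicase of mRNA decay and storage, had log2 ratios of -0.73 and 0.30, the latter over 2 probe sets of which the dimmer had a wild-type value below the floor.

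Ddx5 and Ddx17 encode a closely related pair of helicases that act in splicing and transcription, and both were lower in both experiments. Ddx5 measured 2550.2 and 2400.2 in transgenic against 6009 and 5845 in wild-type cells on its 2 probe sets of experiment 1, and 2975 against 3445 in experiment 2. Both probe sets of experiment 1 carry the suffix f, so no value of experiment 1 is left for Ddx5 without that suffix. Its difference was 2.40-fold in experiment 1 and 1.16-fold in experiment 2, with a mean log2 ratio of -0.74 ± 0.37 (adjusted p = 0.796, limma). Ddx17 measured 6317 and 7418 in experiment 1 and a geometric mean of 3193 and 3573 in experiment 2, log2 ratios of -0.23 and -0.16. Its probe sets of experiment 2 had opposite signs, with 0.08 for that of suffix f and -0.40 for the brighter. Ddx46, a helicase of early spliceosome assembly, was 2.16-fold lower in experiment 1 and 1.02-fold higher in experiment 2. Ddx39a, an mRNA export helicase, was measured only in experiment 1 and was higher there, at 2736 and 1981. Its relative Ddx39b was measured only in experiment 2, at 5616 and 5767.

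Among the ribosome biogenesis helicases, Ddx51 was higher in both, at 566 and 441 in experiment 1 and at 168 and 133 in experiment 2, with a mean log2 ratio of 0.35 ± 0.34 (adjusted p = 0.886, limma). Ddx27 had the largest ratio of the 74 genes in experiment 2, at 193 in transgenic cells against a wild-type value below the floor, at least 1.93-fold higher. This rests on a single probe set with the suffix r, and in experiment 1 the gene measured 5266 and 5477 on a probe set of suffix f. Another Ddx27 probe set of experiment 2, also of suffix r, was below the floor in both genotypes, at 93.2 in transgenic and 90.5 in wild-type cells. Ddx10 was likewise below the floor in wild-type cells of experiment 2, and at 131 in transgenic cells, at least 1.31-fold higher. Ddx21 and Ddx19b, the latter an export factor, were below the floor in transgenic cells of experiment 1, at least 1.96-fold and 1.84-fold lower, with log2 ratios of -0.11 and 0.05 in experiment 2.

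**Figure D3:**
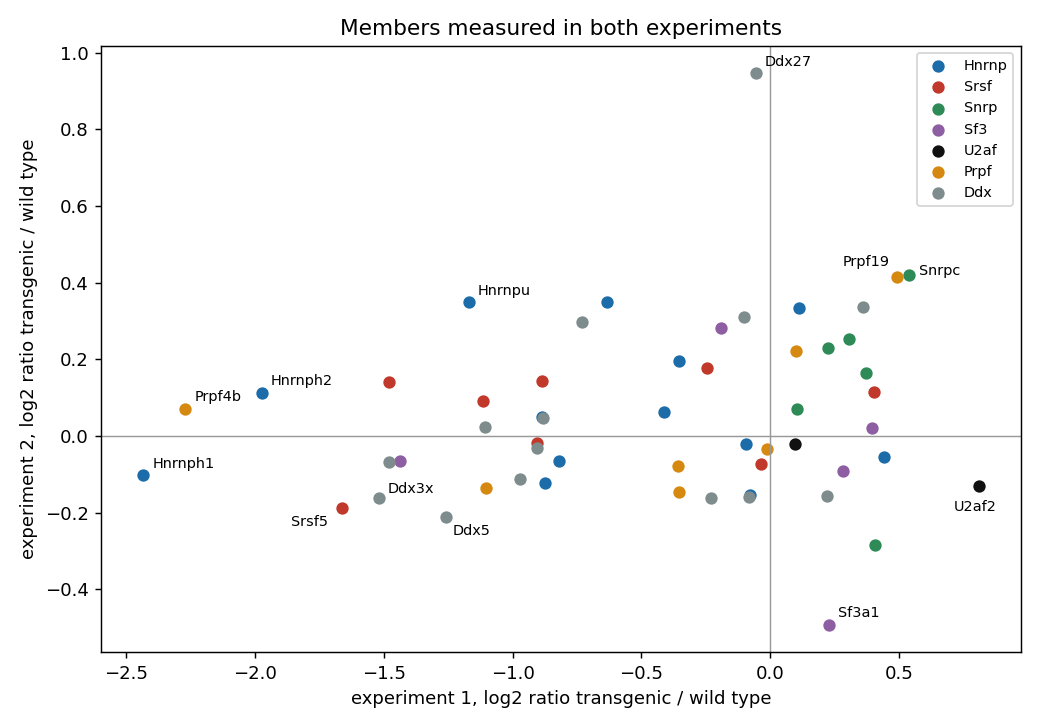
Log2 ratio of transgenic over wild type in experiment 1 (horizontal) and experiment 2 (vertical) of the 55 genes measured in both, coloured by family, with named genes labelled. The 20 genes lower in both lie to the lower left and the 11 higher in both to the upper right; the horizontal spread is larger than the vertical one.

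Across the experiments, 11 of the 55 genes (20%) were higher in both, against 23.9% of all genes, and 20 (36.4%) were lower in both, against 30.4%. The sign was shared by 31 of 55 (56.4%), against 54.3% of all genes. The 13 genes that were 2-fold lower in experiment 1 were Hnrnph1, Hnrnph2, Hnrnpu, Srsf3, Srsf5, Srsf10, Sf3b1, Prpf4b, Prpf38b, Ddx1, Ddx3x, Ddx5 and Ddx46. In experiment 2 they had a median log2 ratio of -0.06, against -0.03 over all genes. There 7 of the 13 were lower, where 54.6% of all genes were. The median genomic length of the 13 was 13.5 kb, against 14.3 kb for the other 45 genes measured in experiment 1. Over the 58 genes, Spearman's rho of length with the log2 ratio was -0.15 in experiment 1, and over the 74 genes it was 0.14 in experiment 2; over all genes it was -0.30 and -0.06. These are descriptions across genes of the same samples.

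Where a gene had several measured probe sets, they could be set against each other. In experiment 1, 14 genes had several, and for 3 of them (Hnrnpc, Srsf1 and Hnrnpdl) the ratios differed by 2-fold or more. Opposite signs were seen in 2 genes, Srsf1 and Srsf6, the latter with log2 ratios of -0.11 and 0.04. In experiment 2, 20 genes had several, none differed by 2-fold, and 12 had probe sets of opposite sign. Many of these families hold close paralogs and processed pseudogenes, and probe sets with the suffix f, r or i may read more than their own gene. Without them, the Snrp genes were 5 of 5 higher in experiment 1 and 4 of 4 in experiment 2, and the Srsf genes 7 of 8 lower and 5 of 9 higher. Probe sets of suffix s, 44 of the 80 in experiment 1, were kept. Snrpb, Snrpb2, Snrpc and Snrpg then rested in experiment 1 on probe sets of that suffix alone. The effect of leaving those out was not tested.

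A list of other splicing genes, chosen from textbook knowledge and not by symbol prefix, had 83 genes on the arrays. In experiment 1, 20 of 61 were higher and 41 lower (median -0.40), where 54.4% of all genes were lower (median -0.07). In that experiment 13 (21.3%) were 2-fold lower, against the background of 11.7%. In experiment 2, 35 of 78 were higher and 43 lower (median -0.03), where 54.6% of all genes were lower (median -0.03). None of the 57 measured in both passed limma, where 0.154% of all genes did. At an unadjusted p under 0.05 in limma, 2.5% of all tested genes were higher and 3.92% lower. Of this list 1 was higher and 2 lower. Raly, an hnRNP C-like protein, was the higher, at 1737 in transgenic and 1342 in wild-type cells in experiment 1 and 829 and 331 in experiment 2, where its 2.51-fold difference was the only 2-fold one of the list (adjusted p = 0.769, limma). Tia1, which promotes the use of weak 5′ splice sites, had log2 ratios of -2.12 and 0.05, and Luc7l2, a U1 snRNP-associated factor, was below the floor in transgenic cells of experiment 1 and 373 in wild-type cells, with an adjusted p of 0.769 in limma for each.

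Others of that list had the same sign in both experiments without a call. Snrnp25, a protein of the minor spliceosome, had log2 ratios of 0.48 and 0.29, Phf5a, a small SF3b subunit, 0.17 and 0.23, and Sf1, the branch point-binding protein, 0.44 and 0.12. Gemin5, which recognises snRNAs for Sm ring assembly, measured 244 in transgenic and 349 in wild-type cells in experiment 1 and 242 and 346 in experiment 2, a log2 ratio of -0.52 in each. Dhx15, a helicase that releases spliced introns, had -0.71 and -0.44, Luc7l -0.50 and -0.34, and Clk3, a kinase of SR proteins, -0.19 and -0.35. Their adjusted p-values in limma lay between 0.803 (Dhx15) and 0.947 (Phf5a).

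**Figure D4:**
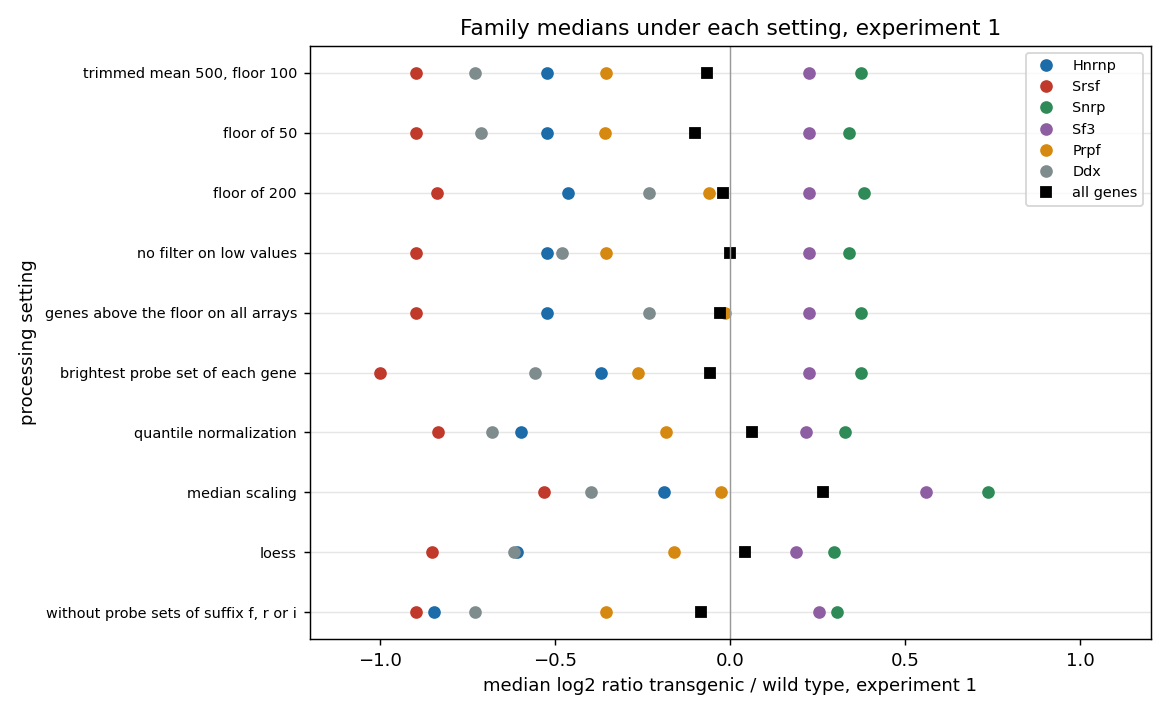
Median log2 ratio of transgenic over wild type in experiment 1 (horizontal) under each processing setting (vertical), for the families with 5 or more measured genes and for all genes (black squares); no error is drawn because each array type has 1 sample per genotype. The Snrp and Sf3 medians lie above the all-gene median and the Srsf, Ddx and Hnrnp medians below it under each of the 10 settings drawn, and with median scaling each of these points lies further to the right than with the trimmed mean of 500.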

How the data were processed

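Levels of 79 genes were read from 6 Affymetrix arrays. The authors deposited linear intensities for each probe set, scaled to nearly equal trimmed means within each pair. The series text names Microarray Analysis Software v4 and v5, per the labels, and MAS5 stands in the submitters' processing notes for the MG-U74Av2 arrays; the scaling target is not given in the sources used here. Mu11K intensities included negative values.

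AFFX control probe sets and 21 Mu11K A probe sets without a wild-type value were left out. Arrays were brought to a 2% trimmed mean of 500, floored at 100 and taken to log2. A gene's ratio is the mean over its probe sets above the floor in at least 1 genotype. The ratios of both experiments entered limma 3.58.1 (R 4.3.3), intercept against 0, over 3237 genes. Its shared variance prior outweighs a gene's own spread between 2 ratios. The samples were paired by array type, since the labels carry no replicate numbers. On simulated ratios of 3237 genes, with the same normal noise for all genes of an experiment, 3.69% of the calls were false. Genes were named from the platform annotation, and promoters taken from RefSeq (GRCm38.p6).

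The genes and lists were chosen with earlier results of these data known. Values per sample are given for genes past limma, for up to 6 genes per direction with the same sign in both experiments, for those at the floor, for the brightest and up to 2 2-fold different genes per family, and for those whose probe sets differ 2-fold. Other named genes were added after their values were seen. Alternatives were floors of 50 and 200, other filters, the brightest probe set, quantile, median and loess normalization, an unpaired fit and each experiment alone. Leaving out probe sets of suffix f, r or i was chosen after seeing the data. Scanner setting files were not used.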

Additional observations from a re-analysis of the deposited data

How the results depend on the processing

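No gene of the 79 passed limma under any of the 10 other fits run: floors, filters, brightest probe set, quantile, median and loess normalization, omission of suffixes f, r and i, and the fit with no replicate block, that is, without pairing by array type, which also called 0. Some of these fits could call little. Sox13 itself had an adjusted p of 0.846 (limma) under at least 1 of them. Without pairing, that of Hnrnph1 was 0.999 (limma). Where even the transgene was not called, 0 calls cannot show that the genes were unchanged. Over 261 values of 27 named genes the lowest adjusted p was 0.275 (limma), and 6 means changed sign. With median scaling Hnrnpc became 0.052, Prpf6 0.17 and Srsf2 0.16, with the brightest probe set Hnrnpc 0.17, and Snrpb -0.023 with quantile and -0.0031 with loess normalization. With 1 experiment alone, which leaves no test, 7 of 54 values had the other sign than the mean. In experiment 1, median scaling moved the median of the members to 0.14, Prpf to -0.025, Hnrnp to -0.19, Srsf to -0.53, Ddx to -0.40, Sf3 to 0.56, Snrp to 0.74 and U2af to 0.85, as it moved all genes from -0.07 to 0.27. The Prpf median of experiment 1 became -0.059 with a floor of 200 and -0.014 over genes above the floor on all arrays, where fewer genes were measured, and the Ddx median -0.23 in each. Without suffixes f, r and i the Hnrnp median of experiment 1 was -0.85. With the brightest probe set the Srsf median of experiment 2 was -0.0042. Without suffixes f, r and i the Snrp median of experiment 2 was 0.34, over 4 genes. The number of arrays limits every value: each array type had 1 sample per genotype.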
